A study of Mus musculus with 16 samples.

Results

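Glutathione S-transferases are enzymes that join the tripeptide glutathione to reactive electrophiles, a step that makes drugs, dietary toxins and products of lipid peroxidation soluble and ready for export. In the small intestine they belong to the detoxification system of the absorptive epithelium, and several of their genes are known targets of the transcription factors NRF2 and the aryl hydrocarbon receptor. Soluble enzymes fall into classes by sequence, among them alpha, mu, pi and omega. The kappa enzyme works in mitochondria and peroxisomes, and the microsomal enzymes sit in membranes. CUL4B, the protein deleted in the study, is the scaffold of an E3 ubiquitin ligase.

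The 10 genes described here are the alpha genes Gsta1, Gsta3 and Gsta4, the mu genes Gstm1 and Gstm3, the pi gene Gstp1, the omega gene Gsto1, the kappa gene Gstk1 and the microsomal genes Mgst1 and Mgst3. They were taken by symbol from 52525 genes listed in all 3 count tables of the series, and all 10 passed the filter on low counts in every experiment. They were selected on their KO against WT expression differences in the same tables. These differences are therefore given as a description, without a test, and no support is taken from the number of these genes that moved.

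RNA-seq was available for 16 libraries from C57BL/6 mice. KOIEC mice carry pVillin-Cre and the floxed X-linked allele (Cul4b fn/Y), and the villin promoter drives Cre in the intestinal epithelium. Their controls, named WT, carry the floxed allele (Cul4b fn/Y). Crypts were taken from 4 WT and 4 KOIEC mice. Small intestinal organoids were grown from WT and KOIEC animals with 2 libraries each. A separate set of organoids compared WT with KOCAG, 2 libraries each, where the ubiquitous CAG promoter drives the tamoxifen-inducible CAG-CreERT2. The KOCAG organoids came from animals with the same floxed allele (Cul4b fn/Y) and had been given tamoxifen before sequencing. Most experiments of the study used mice of 8 to 16 weeks, and the age of each sequenced animal is not given in the sources used here. The sources also do not say whether the WT organoids of the KOCAG experiment carried Cre or received the inducer. The culture medium described in the study contains N-acetylcysteine, a precursor of glutathione, in every organoid group. Libraries held 9311734 to 13479974 counts in crypts, 15006730 to 16881395 in the KOIEC organoid experiment and 7348191 to 10462275 in the KOCAG experiment. Cul4b itself, in CPM (counts scaled to a common library total), was 31.6, 33.1, 38.2 and 32.2 in WT crypts and 1.69, 0.991, 0.846 and 2.20 in KOIEC crypts. In the KOIEC organoid experiment it was 83.1 and 73.1 in WT against 1.68 and 1.75, and in the KOCAG experiment 72.7 and 69.9 in WT against 3.33 and 5.18. The targeted transcript was thus low in every KO library. In crypts, mitochondrial ribosomal RNA (mt-Rnr1 and mt-Rnr2 together) was 18.6 to 27.5 CPM in WT replicate 1 and KO replicates 1 to 3, 831 in WT replicate 4, 1104 in KO replicate 4, and 2733 and 2731 in WT replicates 2 and 3. KO replicates 1 to 3 were all low and WT replicates 2 and 3 were highest, so this measure was unevenly spread over the genotypes.

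Several genes of the family are near copies of each other, and the sequences show where counts can be shared. The first 60 coding bases of the alpha genes are printed below in lower case, with capitals where a base differs from Gsta1. Gm3776, Gm10639 and Gsta2 are the copies that lie beside Gsta1.
Gsta1: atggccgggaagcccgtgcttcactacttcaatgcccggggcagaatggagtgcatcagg
Gm3776: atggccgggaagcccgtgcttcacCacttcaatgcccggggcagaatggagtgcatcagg
Gm10639: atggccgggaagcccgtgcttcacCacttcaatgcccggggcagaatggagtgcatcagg
Gsta2: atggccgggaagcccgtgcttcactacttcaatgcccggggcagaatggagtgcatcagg
Gsta4: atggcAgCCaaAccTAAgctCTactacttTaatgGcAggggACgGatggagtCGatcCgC
Gsta3: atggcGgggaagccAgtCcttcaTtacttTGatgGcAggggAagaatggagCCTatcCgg
Over the whole coding sequence, 667 bases of Gsta1 matched Gm3776 in an alignment, an identity of 99.7%. Identity of Gsta1 was 97.6% with Gsta2, 97% with Gm10639, 77.4% with Gsta3 and 71.2% with Gsta4. Gsta3 and Gsta4 are thus the alpha genes of the list that are easily told apart from the rest.

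The same comparison for the pi class, with capitals where a base differs from Gstp1, shows a second close pair.
Gstp1: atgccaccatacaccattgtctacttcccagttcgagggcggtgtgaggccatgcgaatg
Gstp2: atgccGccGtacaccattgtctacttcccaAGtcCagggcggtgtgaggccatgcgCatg
Gstp3: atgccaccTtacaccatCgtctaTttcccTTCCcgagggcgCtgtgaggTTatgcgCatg
Gstp1 and Gstp2 shared 98.1% of coding bases, and Gstp1 and Gstp3 75.6%. Among the mu genes, Gstm1 and Gstm3 shared 89.4%. Sequences were read from GENCODE M21 transcripts. Of all stretches of 100 bases in the Gsta1 transcript, 81.8% also occurred in a transcript of another gene, most often Gm3776. The share was 52.8% for Gstp1, 13.8% for Gstm3 and 7.73% for Gstm1, and no such stretch was found for Gsta3, Gsta4, Gstk1, Gsto1, Mgst1 or Mgst3. How the authors' counting treated reads that fit several genes is not given in the sources used here, so the values of Gsta1 and Gstp1 are uncertain by what their copies took or gave.

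Levels in WT libraries were compared per transcript length, as TPM computed from the counts and the gene lengths in the tables and scaled to the same total in every library. In WT crypts the most abundant of the 10 were Gsto1, a thioltransferase and dehydroascorbate reductase, at 499 ± 18.9 TPM (SD, n = 4) and the membrane enzyme Mgst3 at 451 ± 57.7 TPM. Their ranges overlapped. Mgst1 followed at 212 ± 8.0 TPM, and its range lay below that of Mgst3. Gstm3 at 145 ± 83.5 TPM, Gstm1 at 59.8 ± 13.7 TPM, Gsta1 at 43.0 ± 42.9 TPM, Gsta4 at 36.3 ± 30.3 TPM, Gstk1 at 32.0 ± 10 TPM and Gstp1 at 17.9 ± 3.32 TPM formed a series in which each gene overlapped the next. Gsta3 was last at 2.08 TPM, and its range did not reach that of Gstp1. Gsto1 took 33.8% ± 4.38 of the summed TPM of the 10 genes and Mgst3 30.2% ± 1.70, whereas the alpha genes Gsta1, Gsta4 and Gsta3 took 2.62%, 2.25% and 0.142%.

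WT organoids had another order. In the KOIEC experiment Gstm3 at 1797 TPM and Gstm1 at 1723 TPM led, with overlapping ranges over 2 libraries, followed by Gstp1 at 1345 TPM and Gsta1 at 1061 TPM. In the KOCAG experiment Gstp1 led at 1393 ± 81.6 TPM (SD, n = 2), clear of Gsto1 at 526 TPM and Gstm1 at 518 TPM, which overlapped. Gstp1 made up 31.3% of the summed TPM of the 10 genes there, and 16.2% in the KOIEC experiment. Gstk1 was the last of the 10 in both organoid experiments, at 30.3 and 15.7 TPM. The 10 genes together made up 0.122 to 0.264% of all TPM in crypt libraries, 0.76 to 1.24% in the KOIEC organoid experiment and 0.423 to 0.777% in the KOCAG experiment. Each experiment has its own set of counts, and the sources used here do not say whether the libraries were prepared together. These levels are therefore set side by side and were not compared by a test.

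**Figure D1:**
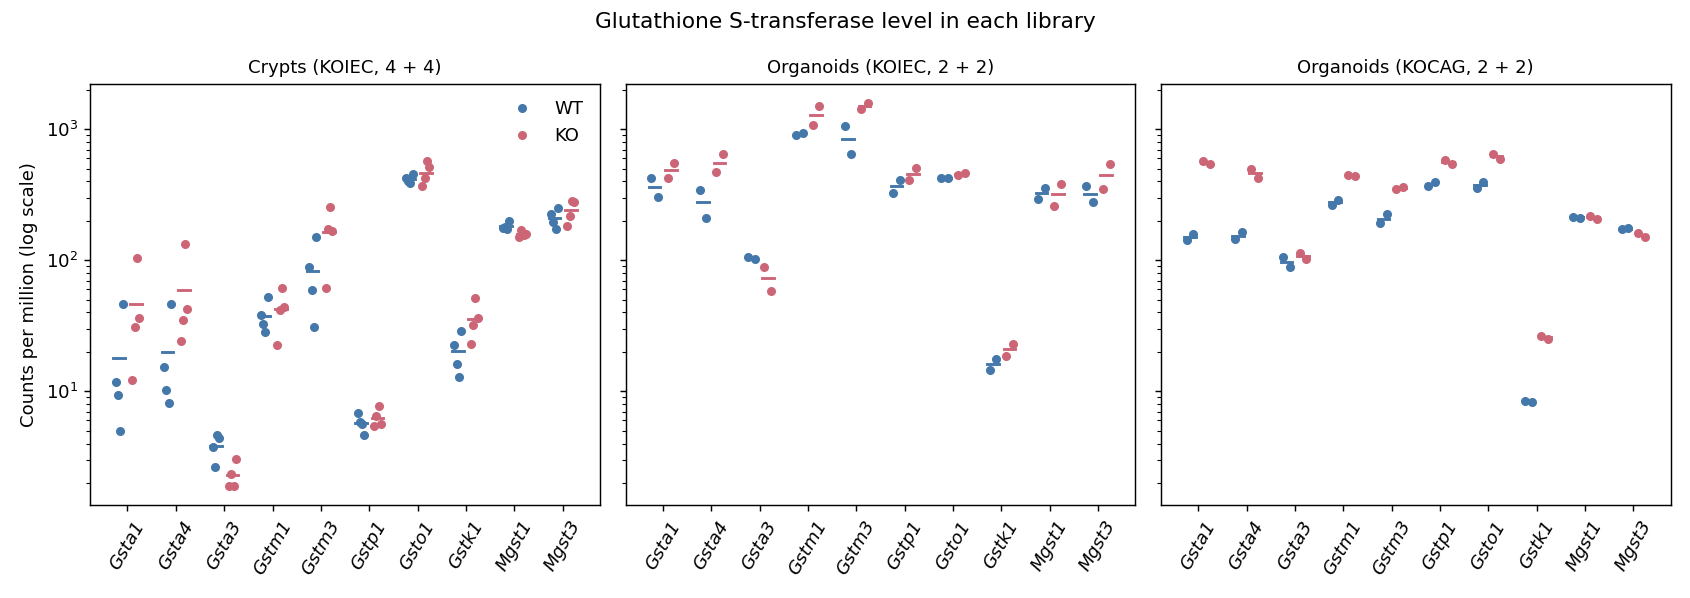
CPM of each of the 10 genes in each library on a log axis, for crypts (4 WT, 4 KOIEC), KOIEC organoids (2 and 2) and KOCAG organoids (2 and 2); points are libraries and bars are group means. Gsta1, Gsta4 and Gstk1 are clear of WT in KOCAG organoids and spread widely within each genotype in crypts, where WT Gsta1 runs from 5.03 to 46.5 CPM.

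In KOCAG organoids the alpha genes Gsta1 and Gsta4 and the kappa gene Gstk1 were about 3-fold or more above WT, the mu, pi and omega genes stood above WT by smaller folds, and the microsomal genes and Gsta3 differed little. In KOIEC crypts and organoids all of the list but Gsta3 and Mgst1 had a positive log2 difference. Gsta1, Gsta4 and Gstm3 were among them, with libraries of the same genotype far apart. Across the 3 experiments Gsta4 and Gstm3 were the genes of the list with a log2 difference of at least 0.78 each time in the full sets of libraries. This cutoff was set after the values were seen, so it describes them and lends no support. With 1 library left out, the lowest values were 0.76 in crypts, 0.68 in KOIEC organoids and 1.44 in KOCAG organoids for Gsta4, and 0.71, 0.51 and 0.66 for Gstm3. With an enterocyte marker score as a covariate, described below, the crypt values were -0.37 for Gsta4 and -0.67 for Gstm3.

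Gsta1 encodes an alpha enzyme with broad activity towards electrophiles and lies at chr9:78230656-78242684 on the plus strand, by the positions in the tables. In KOCAG organoids it was 142 and 159 CPM in WT and 569 and 543 CPM in KO. No KO library came near WT. The log2 difference was 1.89 ± 0.09 (SE), a 3.70-fold higher level. In crypts Gsta1 was 11.7, 9.31, 5.03 and 46.5 CPM in WT and 12.1, 31.2, 105 and 36.4 CPM in KOIEC. The groups overlapped through WT replicate 4, which was above 3 of the 4 KO libraries, and the log2 difference was 1.34 ± 0.76. Without WT replicate 4 it was 2.44, and without KO replicate 3 it was 0.56. In KOIEC organoids the values were 427 and 305 CPM in WT and 425 and 552 CPM in KO, which overlap, with a log2 difference of 0.42 ± 0.25. When Gsta1, Gsta2, Gm3776 and Gm10639 were counted as 1 gene, the sums in KOCAG organoids were 220 to 239 CPM in WT and 708 to 759 CPM in KO, and the log2 difference was 1.67 ± 0.09. Gsta1 itself made up 64.5 to 80.3% of the sum in those libraries.

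Gsta4, at chr9:78182774-78209349 on the plus strand, is the alpha enzyme known for conjugating the lipid peroxidation product 4-hydroxynonenal. It was 145 and 164 CPM in WT and 496 and 425 CPM in KOCAG organoids, a log2 difference of 1.58 ± 0.11. In KOIEC organoids it was 346 and 210 CPM in WT and 473 and 643 CPM in KO. There, too, no KO library overlapped WT, and the log2 difference was 1.00 ± 0.31. In crypts Gsta4 was 15.3, 10.2, 8.22 and 46.8 CPM in WT and 24.4, 35.3, 134 and 42.3 CPM in KOIEC, a log2 difference of 1.54 ± 0.66. WT replicate 4 again exceeded 3 of the 4 KO libraries. Leaving out 1 library at a time gave log2 differences of 0.76 (without KO replicate 3) to 2.41 (without WT replicate 4) in crypts.

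Gsta3, a distinct alpha gene on another chromosome (chr1:21240589-21265661) whose mouse enzyme is known for conjugating aflatoxin epoxide, did not follow them. In crypts it was 3.75, 2.63, 4.63 and 4.41 CPM in WT and 1.90, 2.36, 1.90 and 3.02 CPM in KOIEC, a log2 difference of -0.74 ± 0.26. In KOIEC organoids it was 106 and 102 CPM in WT and 89.2 and 58.7 CPM in KO, a log2 difference of -0.49 ± 0.24. KO lay below WT in those organoids and mostly below in crypts, where KO replicate 4 reached into the WT range. In KOCAG organoids Gsta3 was 105 and 88.4 CPM in WT and 113 and 102 CPM in KO, and the log2 difference was 0.14 ± 0.10 with overlap.

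The mu genes Gstm3 (chr3:107963696-107969283) and Gstm1 (chr3:108012255-108017973), whose products act on epoxides and quinones, are both on the minus strand. Gstm3 was 192 and 225 CPM in WT and 353 and 363 CPM in KOCAG organoids, a log2 difference of 0.78 ± 0.10. In KOIEC organoids it was 1053 and 644 CPM in WT and 1440 and 1593 CPM in KO, with a log2 difference of 0.84 ± 0.28. KO libraries were above WT in both organoid experiments. In crypts Gstm3 was 88.7, 59.0, 31.1 and 151 CPM in WT and 61.6, 174, 256 and 167 CPM in KOIEC, a log2 difference of 1.00 ± 0.50. KO replicate 1 fell inside the WT range, while the other 3 KO libraries lay above it. Gstm1 was 263 and 290 CPM in WT and 452 and 436 CPM in KOCAG organoids, and 909 and 930 CPM in WT against 1081 and 1497 CPM in KOIEC organoids. The log2 differences were 0.68 ± 0.09 and 0.49 ± 0.22. In crypts the Gstm1 ranges overlapped, with 28.3 to 52.4 CPM in WT and 22.6 to 61.1 CPM in KOIEC, and a log2 difference of 0.16 ± 0.28.

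Gstp1 (chr19:4035407-4037921 in the tables, on the minus strand) encodes the pi enzyme, which is also known to bind the kinase JNK. It was 371 and 394 CPM in WT and 580 and 541 CPM in KOCAG organoids, a log2 difference of 0.55 ± 0.09 without overlap. In KOIEC organoids it was 328 and 412 CPM in WT and 409 and 509 CPM in KO, which overlap. In crypts it was 6.79, 5.83, 5.66 and 4.65 CPM in WT and 5.49, 6.48, 7.72 and 5.59 CPM in KOIEC. These groups overlapped nearly fully, and the log2 difference was 0.14 ± 0.19. Counting Gstp2 and Gstp-ps with Gstp1 gave a KOCAG difference of 0.56 ± 0.09, in a sum of which Gstp1 itself made up 86.7 to 87.4%.

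Gsto1 (chr19:47854970-47864790) was 355 and 395 CPM in WT and 652 and 590 CPM in KOCAG organoids, a log2 difference of 0.73 ± 0.10. In KOIEC organoids it was 428 and 423 CPM in WT and 446 and 461 CPM in KO, a log2 difference of 0.09 ± 0.16. The ranges were apart in both, but by a much smaller amount in KOIEC organoids. In crypts the WT range was 391 to 459 CPM and the KOIEC range 368 to 568 CPM, with a log2 difference of 0.16 ± 0.15.

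Gstk1 (chr6:42245935-42250447) encodes the mitochondrial and peroxisomal enzyme and had the lowest organoid TPM of the 10. It was 8.41 and 8.27 CPM in WT and 26.6 and 25.3 CPM in KOCAG organoids, a log2 difference of 1.63 ± 0.16 and a 3.10-fold higher level. In KOIEC organoids it was 14.5 and 17.8 CPM in WT and 18.7 and 23.1 CPM in KO, a log2 difference of 0.37 ± 0.25. In crypts it was 22.8, 16.1, 12.9 and 29.1 CPM in WT and 23.1, 32.2, 51.5 and 36.6 CPM in KOIEC. KO replicate 1 lay inside the WT range and the other KO libraries above it, with a log2 difference of 0.82 ± 0.29.

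The microsomal genes stood close to WT in KOCAG organoids. Mgst1 (chr6:138140316-138156755), an enzyme of the endoplasmic reticulum and outer mitochondrial membrane, was 215 and 212 CPM in WT and 219 and 208 CPM in KOCAG organoids. The log2 difference was -0.00 ± 0.08. In crypts it was 175, 179, 172 and 200 CPM in WT and 150, 170, 157 and 160 CPM in KOIEC, a log2 difference of -0.19 ± 0.09, and it was the gene of the list whose crypt groups did not overlap. Mgst3 (chr1:167371966-167393841) was 173 and 177 CPM in WT and 161 and 151 CPM in KOCAG organoids, a log2 difference of -0.16 ± 0.08 with KO below WT. In crypts the Mgst3 ranges were 173 to 251 CPM in WT and 182 to 283 CPM in KOIEC. In KOIEC organoids Mgst1 and Mgst3 overlapped between groups, with log2 differences of -0.01 ± 0.25 and 0.47 ± 0.29.

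**Figure D2:**
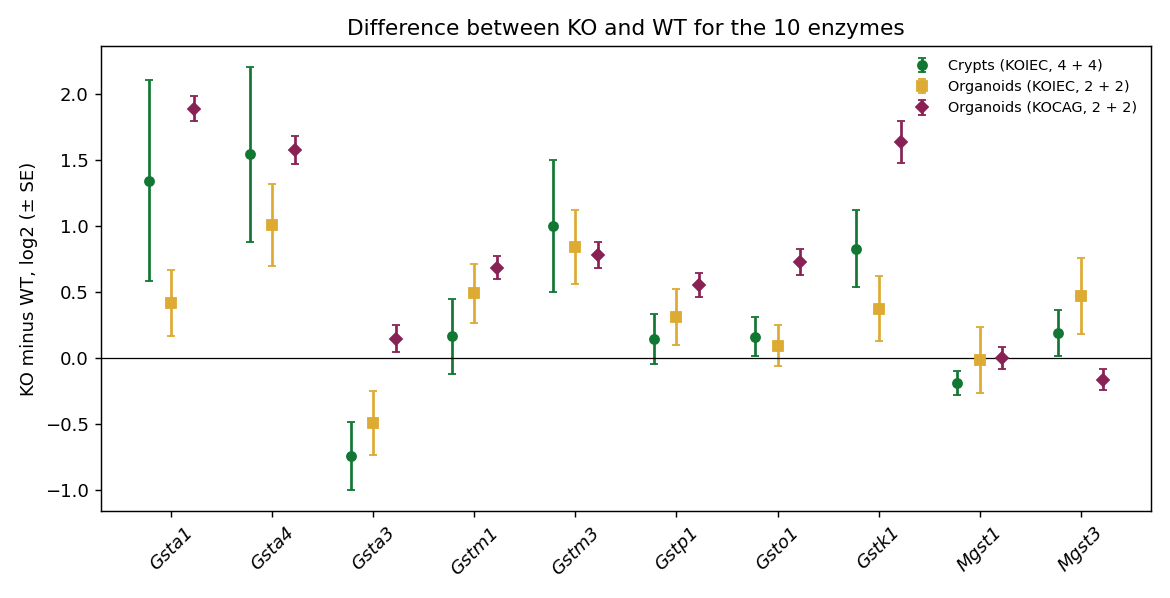
Log2 difference, KO minus WT, of the 10 genes with its standard error in crypts, KOIEC organoids and KOCAG organoids. Gsta1, Gsta4 and Gstk1 reach 1.89, 1.58 and 1.63 in KOCAG organoids with short error bars, and the crypt bars for Gsta1 (1.34 ± 0.76) and Gsta4 (1.54 ± 0.66) are the longest.

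Counts of these genes past a threshold are given with the share among all genes, and nothing is read from them because the same contrast chose the list. With edgeR's quasi-likelihood test and an adjusted p under 0.05 over all tested genes, 7 of the 10 were higher and 0 lower in KOCAG organoids (Gsta1, Gsta4, Gstk1, Gstm3, Gsto1, Gstm1 and Gstp1), where 31.5% of 13598 genes were called, 18.1% higher and 13.4% lower. With a fold of at least 2 as well, Gsta1, Gsta4 and Gstk1 remained, against 6.36% of all genes higher and 2.24% lower. In crypts 0 of 10 were called, against 6.96% of 13427 genes (4.30% higher and 2.66% lower, and 1.44% higher with a fold of at least 2). An unadjusted p under 0.05 was found for 3 of them (Gsta4, Gstk1 and Gsta3), against 31.9% of all genes, and DESeq2 called 1, Gstk1. DESeq2 called 19.7% of all crypt genes. Without WT replicate 4, edgeR called Gsta1, Gsta4 and Gstk1 in crypts, where it then called 13.6% of all genes, and without KO replicate 1 it called Gstk1 and 18.0% of all genes. In KOIEC organoids 0 of 10 were called, against 0.00717% of 13938 genes, which was Cul4b alone. There, 2 of 10 had an unadjusted p under 0.05 (Gstm3 and Gsta4), against 4.66% of all genes, and DESeq2 called 0, against 0.198%. Without KO replicate 1 edgeR called Gsta3, Gsta4, Gstm1 and Mgst3 in KOIEC organoids, where it then called 15.8% of all genes. Every KO library lay above every WT library for 7 of 10 in KOCAG organoids (35.4% of all genes) and 5 of 10 in KOIEC organoids (19.4%), with 0 of 10 in crypts (8.75%). Every KO library lay below every WT library for 1 of 10 in KOCAG organoids (Mgst3; 34.3% of all genes), 1 in KOIEC organoids (Gsta3; 19.4%) and 1 in crypts (Mgst1; 8.78%). The median log2 difference of the 10 was 0.18 in crypts, 0.39 in KOIEC organoids and 0.71 in KOCAG organoids, with medians over all genes of -0.01, -0.01 and 0.00.

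The remaining genes of the family were taken from a list of 22 genes with symbols in the tables. It was drawn up with earlier results of these data known, so its counts and p-values are a description. In KOCAG organoids 18 were tested. Of these, 7 rose and 2 fell, set against 18.1% and 13.4% of all genes. Gm3776 rose by a log2 difference of 1.18 ± 0.21 (adjusted p = 0.00195), from 61.9 and 65.1 CPM to 104 and 183 CPM. Gsta2 rose by 1.11 ± 0.16 (adjusted p = 0.000689) and Gm10639 by 1.11 ± 0.31 (adjusted p = 0.0219). These 3 are the near copies of Gsta1. The mu genes Gstm6 (0.82 ± 0.11, adjusted p = 0.000404), Gstm4 (0.50 ± 0.11, adjusted p = 0.00655) and Gstm7 (0.49 ± 0.15, adjusted p = 0.0266) also rose, as did the microsomal Mgst2 (0.59 ± 0.11, adjusted p = 0.0037). Gstt2, a theta enzyme, fell by a log2 difference of -0.51 ± 0.09 (adjusted p = 0.00237), and Gstp3, a further pi gene, by -0.45 ± 0.15 (adjusted p = 0.0411). The calls of Gstm7, Gm10639 and Gstp3 depended on single libraries: Gstm7 was lost without WT replicate 1 or KO replicate 1, Gm10639 without WT replicate 1 or KO replicate 2, and Gstp3 without WT replicate 1, WT replicate 2 or KO replicate 2, with adjusted p of up to 0.215, 0.172 and 0.293. In crypts 0 of 16 tested were called by edgeR, 4 had an unadjusted p under 0.05 (Gstt1, Gstm5, Gstm6 and Gsta2), against 31.9% of all genes, and DESeq2 called 3, against 19.7%. In KOIEC organoids 0 of 19 were called by edgeR or DESeq2 and 0 had an unadjusted p under 0.05.

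Family genes lie in clusters, and the KOCAG differences can be read along them. On chromosome 9 the order is Gsta4, Gsta1, Gm3776, Gm10639 and Gsta2, and the log2 differences were 1.58, 1.89, 1.18, 1.11 and 1.11. Every gene of that cluster was higher in KO, whereas Gsta3 on chromosome 1 stood at 0.14. Gsta1, Gm3776, Gm10639 and Gsta2 are near copies that may share reads, so their values may not be separate observations. On chromosome 3 the order is Gstm5, Gstm7, Gstm6, Gstm3, Gstm2, Gstm1 and Gstm4, with log2 differences of -0.11, 0.49, 0.82, 0.78, -0.00, 0.68 and 0.50. The mu cluster was thus not uniform: Gstm2, between Gstm3 and Gstm1, had an adjusted p of 0.985 and Gstm5, at the end, an adjusted p of 0.489.

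**Figure D3:**
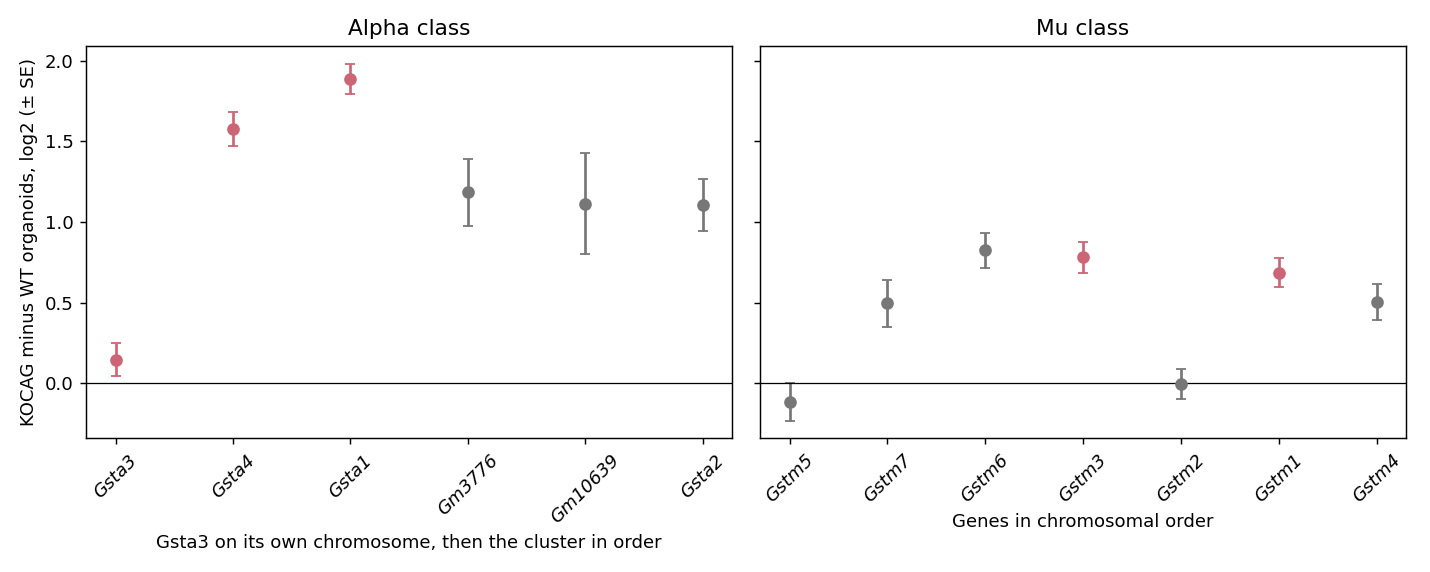
Log2 difference, KOCAG minus WT organoids, with its standard error, for alpha genes (Gsta3, then the chromosome 9 cluster in order) and for the mu cluster in order; red marks genes of the list of 10 and grey the other family genes. The chromosome 9 genes lie between 1.11 and 1.89, while Gstm2 and Gstm5 lie near 0 within the mu cluster.

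Start site regions were searched for core motifs of the pathways that are known to drive these genes. RefSeq promoters on GRCm38.p6, from 250 bases before to 50 after the start, were found for 9 of the 10 genes. The core of the antioxidant response element bound by NRF2, TGACNNNGC, occurred on either strand in 12.4% of 32851 promoters, and among the 9 genes in Gsta3 and Mgst1. Among the other family genes it was found in Gstm5 and Gstm7. These 4 windows are printed 5′ to 3′ on the strand of the gene, with the match in capitals, to show every family promoter of the search that holds these letters.
Gsta3, chr1:21240449-21240487, plus strand: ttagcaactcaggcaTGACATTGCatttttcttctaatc
Mgst1, chr6:138140456-138140494, plus strand: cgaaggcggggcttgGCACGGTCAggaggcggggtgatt
Gstm5, chr3:107895797-107895835, plus strand: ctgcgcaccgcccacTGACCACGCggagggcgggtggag
Gstm7, chr3:107931720-107931758, minus strand: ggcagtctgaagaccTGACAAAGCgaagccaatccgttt
The core bound by the aryl hydrocarbon receptor with its partner, GCGTG, occurred in 32.4% of promoters and in those of Gsta1, Gstm1, Gstp1 and Mgst3. The letters around it are nearly the same in the copies of Gsta1, which are shown for that reason.
Gsta1, chr9:78230652-78230686, plus strand: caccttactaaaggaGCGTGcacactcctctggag
Gm3776, chr9:78257125-78257159, plus strand: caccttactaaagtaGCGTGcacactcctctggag
Gsta2, chr9:78347133-78347167, minus strand: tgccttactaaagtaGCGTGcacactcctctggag
A match is a run of letters in this window and was not tested as a binding site, and elements farther from the start were not searched.

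Lists of related genes, which supply glutathione, process its conjugates or answer to the same regulators, were read from the same fits. The lists were drawn up with earlier results of these data known. Their counts and p-values are therefore a description, and no support is taken from them. Genes named from each list are those with the smallest p, up to 4, unless stated otherwise. In KOCAG organoids genes of glutathione supply, conjugate processing and the NRF2 list rose in larger numbers than fell, where 18.1% and 13.4% of all genes rose and fell. In crypts 4 of 80 tested genes of these lists rose by edgeR, against 4.30% of all genes. An unadjusted p under 0.05 was found for 38, against 31.9% of all genes. DESeq2 called 27 higher and 0 lower, where it called 12.2% of all genes higher. In KOIEC organoids 0 of 83 were called by edgeR at an adjusted p under 0.05. There 6 had an unadjusted p under 0.05, against 4.66% of all genes, and DESeq2 called 1, against 0.198%.

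Of 15 tested genes for glutathione synthesis and recycling, 9 rose and 0 fell in KOCAG organoids. Slc7a11 and Slc3a2, which form the cystine and glutamate exchanger, rose by log2 differences of 1.59 ± 0.21 (adjusted p = 0.000457) and 1.02 ± 0.11 (adjusted p = 0.000137). Slc7a11 went from 8.20 ± 1.74 to 24.9 ± 5.54 CPM (SD, n = 2). Gclm and Gclc, the subunits of the rate-limiting glutamate-cysteine ligase, rose by 0.59 ± 0.09 (adjusted p = 0.000887) and 0.43 ± 0.08 (adjusted p = 0.00279). The count of this list was 4 without WT replicate 2, where 12.2% of all genes rose. In crypts 2 of 14 rose, Gclm by 0.62 ± 0.15 (adjusted p = 0.0483) and Slc3a2 by 0.61 ± 0.15 (adjusted p = 0.0475). Each crypt call was lost when any 1 of WT replicates 1 to 3 or KO replicates 2 to 4 was left out, with adjusted p of up to 0.138 for Gclm and 0.132 for Slc3a2.

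Of 15 tested genes for conjugate processing and export, 9 rose and 0 fell in KOCAG organoids. Some of the listed genes encode enzymes that cut the glutathione conjugate at the cell surface, and others encode transporters that carry it out of the cell. Dpep1, a dipeptidase that cleaves cysteinylglycine, rose by 2.26 ± 0.19 (adjusted p = 3.16e-05), Ggt1, the gamma-glutamyltransferase, by 1.47 ± 0.12 (adjusted p = 2.19e-05), the aminopeptidase Anpep by 1.46 ± 0.15 (adjusted p = 8.5e-05) and the exporter Abcc4 by 1.07 ± 0.12 (adjusted p = 0.000163). Anpep and Dpep1 are also genes of the absorptive brush border. In crypts 0 of 14 were called by edgeR, and 8 had an unadjusted p under 0.05. With DESeq2 7 rose (12.2% of all genes), as did 7 when WT replicate 4 was left out (8.63% of all genes).

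Of 6 tested glutathione peroxidases, 5 rose and 0 fell in KOCAG organoids. Gpx3 rose by 1.81 ± 0.30 (adjusted p = 0.00152), though at a low level of 2.42 CPM in WT and 8.43 CPM in KO. Gpx2, the gastrointestinal peroxidase, rose by 0.79 ± 0.10 (adjusted p = 0.000396), Gpx4, which reduces lipid hydroperoxides, by 0.67 ± 0.08 (adjusted p = 0.000303), and Gpx1 by 0.48 ± 0.09 (adjusted p = 0.00315). In crypts 0 of 6 were called by edgeR or DESeq2, and 1 had an unadjusted p under 0.05.

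Of 17 tested NRF2 targets outside the glutathione system, 12 rose and 0 fell in KOCAG organoids. Osgin1 rose by 1.92 ± 0.18 (adjusted p = 6.33e-05), the sulfiredoxin Srxn1 by 1.18 ± 0.11 (adjusted p = 6.39e-05), the autophagy receptor Sqstm1 by 0.98 ± 0.12 (adjusted p = 0.000271) and Ugdh, which makes the sugar donor of glucuronidation, by 0.87 ± 0.11 (adjusted p = 0.000255). The count was 7 without WT replicate 1, where 11.8% of all genes rose. In crypts 0 of 16 were called by edgeR, 5 had an unadjusted p under 0.05 and DESeq2 called 5 higher. Nqo1, a classical target named after its values were seen, had a log2 difference of 0.41 ± 0.11 (adjusted p = 0.018) in KOCAG organoids, lost without WT replicate 1 or WT replicate 2, and of -0.00 ± 0.09 (adjusted p = 0.988) in crypts.

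Of 15 tested xenobiotic-sensing regulators, 5 rose and 1 fell in KOCAG organoids. Mafk, a partner of NRF2 on DNA, rose by 0.76 ± 0.11 (adjusted p = 0.000546), the nuclear receptor Nr1i3 by 0.85 ± 0.18 (adjusted p = 0.00517) and Nfe2l2, the gene of NRF2, by 0.34 ± 0.09 (adjusted p = 0.013). Bach1, which represses the same elements, fell by -0.36 ± 0.09 (adjusted p = 0.0113). Without WT replicate 1 the counts were 2 and 0, and the Bach1 and Nfe2l2 calls were lost. In crypts Bach1 rose by 0.51 ± 0.12 (adjusted p = 0.0457), the other way, and so did Nr1i2, named after its values were seen, by 0.38 ± 0.10 (adjusted p = 0.0493). Both crypt calls were lost without any 1 of 6 libraries, WT replicates 1 to 3 and KO replicates 2 to 4. The difference between the experiments was not tested.

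Of 15 tested conjugating enzymes of other families, 7 rose and 2 fell in KOCAG organoids. The glucuronosyltransferases Ugt2a3, Ugt2b5 and Ugt1a7c rose by 1.36 ± 0.11 (adjusted p = 2.18e-05), 1.09 ± 0.14 (adjusted p = 0.000377) and 0.55 ± 0.09 (adjusted p = 0.00117), and the sulfotransferase Sult1b1 by 1.06 ± 0.12 (adjusted p = 0.000149). The genes that fell, named after their values were seen, were the sulfotransferase Sult1c2 by -1.80 ± 0.29 (adjusted p = 0.00117) and the methyltransferase Tpmt by -0.61 ± 0.16 (adjusted p = 0.0158). In crypts 0 of 15 were called by edgeR, and 8 had an unadjusted p under 0.05. DESeq2 called 6 higher (12.2% of all genes), and 7 rose without WT replicate 4 (8.63% of all genes).

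**Figure D4:**
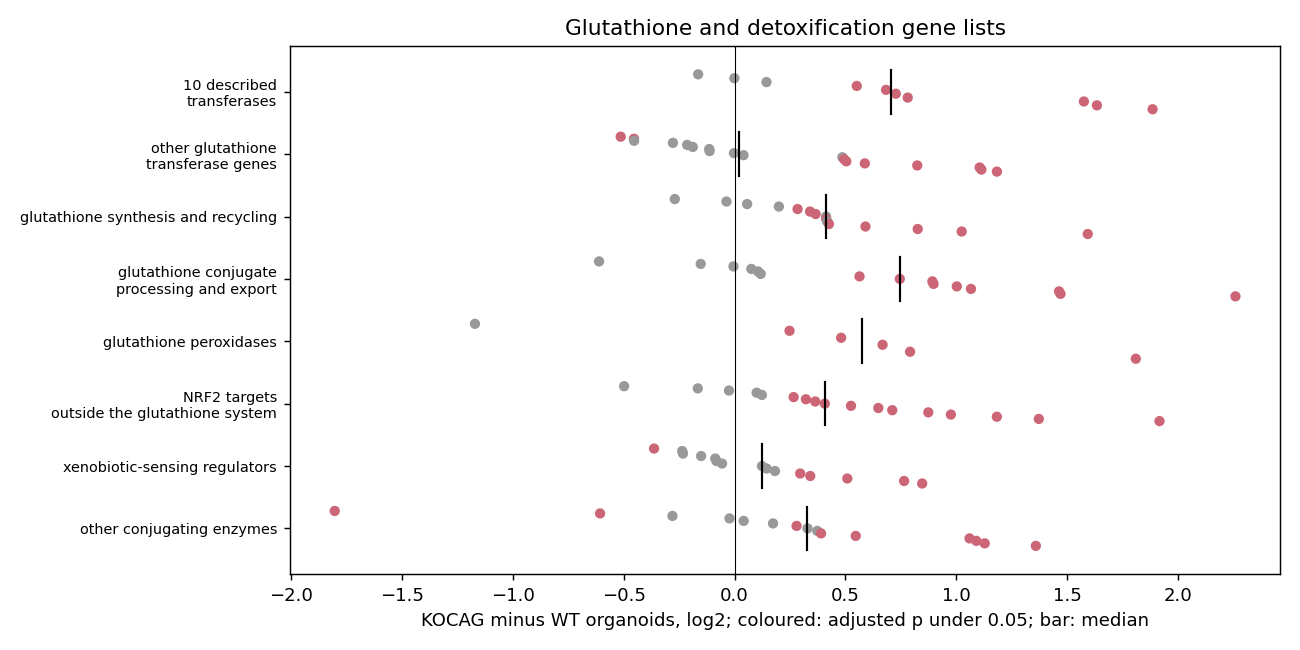
Log2 difference, KOCAG minus WT organoids, for each tested gene of the 10 transferases and of 7 related lists; colour marks an adjusted p under 0.05 and the vertical bar is the median of the list. The supply, processing, peroxidase and NRF2 lists hold 9, 9, 5 and 12 coloured genes to the right of 0 and no coloured gene to the left.

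Marker genes of several cell types also differed between the groups. In KOCAG organoids, their part in the transferase values was not tested. There, 13 of 15 enterocyte markers, 9 of 10 Paneth markers, 7 of 9 goblet markers and 9 of 9 tested enteroendocrine markers rose. Of 10 stem cell markers 4 fell, while 3 had a positive log2 difference, and their median was -0.12. Among all genes 18.1% rose and 13.4% fell. The summed enterocyte markers were 9443 and 9943 CPM in WT and 21334 and 17313 CPM in KO. The summed CPM of the 10 transferases moved from 1970 and 2112 in WT to 3620 and 3383 in KO. In bulk RNA, fewer cells of a type and less RNA per cell cannot be told apart. In KOIEC organoids the order of the sums differed in part: WT replicate 2 held more enterocyte marker than WT replicate 1 (24136 against 13778 CPM) and less transferase (3675 against 4274 CPM), and KO replicate 1 held the least marker (9742 CPM) with 4990 CPM of transferase. KO replicate 2 held the most of both, 31754 CPM of marker and 6262 CPM of transferase. Stem cell markers in KOIEC organoids summed to 3592 and 5035 CPM in WT and 2357 and 648 CPM in KO, with 0 of 10 called by edgeR, 4 with an unadjusted p under 0.05, 2 lower by DESeq2, 9 with every KO library below every WT library (19.4% of all genes) and a median log2 difference of -1.29. Immune markers summed to 0.721 and 0.775 CPM in WT and 4.12 to 6.24 CPM in KOCAG organoids. Gzma, Gzmb, Cd8a and Jchain were at 0 in every library. Only 1 of the 10 immune markers had enough counts to be tested, and it rose.

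In crypts most of the 10 genes varied between mice together with the markers of several cell types, while Gsta3 and Gstp1 did not follow the enterocyte markers. The summed enterocyte markers were 8826, 5363, 3864 and 14386 CPM in WT and 12910, 20885, 29471 and 26531 CPM in KOIEC. All 15 had a positive log2 difference, of which 2 passed the test (4.30% of all genes were higher). When WT replicate 4 was left out 12 passed (8.63% of all genes were then higher). None passed when WT replicate 1 was left out (0.147% of all genes were then called). Of 10 stem cell markers 3 fell, against 2.66% of all genes, and 0 without WT replicate 1. Immune markers summed to 34.4 to 127.2 CPM in WT and 57.7 to 371.6 CPM in KO crypts, with 0 of 9 tested called by edgeR, 2 with an unadjusted p under 0.05 and 2 called by DESeq2, and their part in the transferase values was not tested. The summed Paneth markers were 2197 CPM in KO replicate 3 and 9111 to 23329 CPM in the other 7 crypt libraries. WT replicate 4 had the most enterocyte marker of the WT libraries and also the most Gsta1, Gsta4, Gstk1 and Gstm3, and KO replicate 3 had the most of all 8 libraries for the same genes. After the mean of each genotype was subtracted from log2 CPM, so that the KO against WT difference played no part, the correlation over 8 libraries with the summed enterocyte markers was 0.963 for Gstk1 (Spearman's rho 0.952), 0.961 for Gstm3 (0.905), 0.925 for Gsta1 (0.976), 0.924 for Mgst3 (0.952), 0.887 for Gstm1 (0.929), 0.882 for Gsta4 (0.952), 0.768 for Gsto1 (0.81) and 0.691 for Mgst1 (0.667). It was 0.26 for Gsta3 and 0.0042 for Gstp1. Without the 2 libraries farthest from the median, WT replicates 3 and 4, it stayed between 0.786 and 0.949 for the first 7 of these genes and was 0.28 for Mgst1, 0.526 for Gsta3 and 0.611 for Gstp1. The summed stem cell markers ran the other way, from -0.86 for Gstm3 to -0.945 for Gstk1 among the same 7 genes. Markers of further cell types moved with these 7 genes as well, with correlations of 0.85 (Gstm3) to 0.95 (Gsto1) for immune markers, 0.766 (Gstm3) to 0.875 (Gsto1 and Mgst3) for enteroendocrine markers and 0.759 (Gsta4) to 0.866 (Gstk1) for goblet markers. Paneth markers gave -0.306 (Mgst3) to -0.53 (Gsta4). The correlations are therefore not particular to enterocytes. Points share their libraries and their depth scaling, so these correlations describe the libraries and carry no p.

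**Figure D5:**
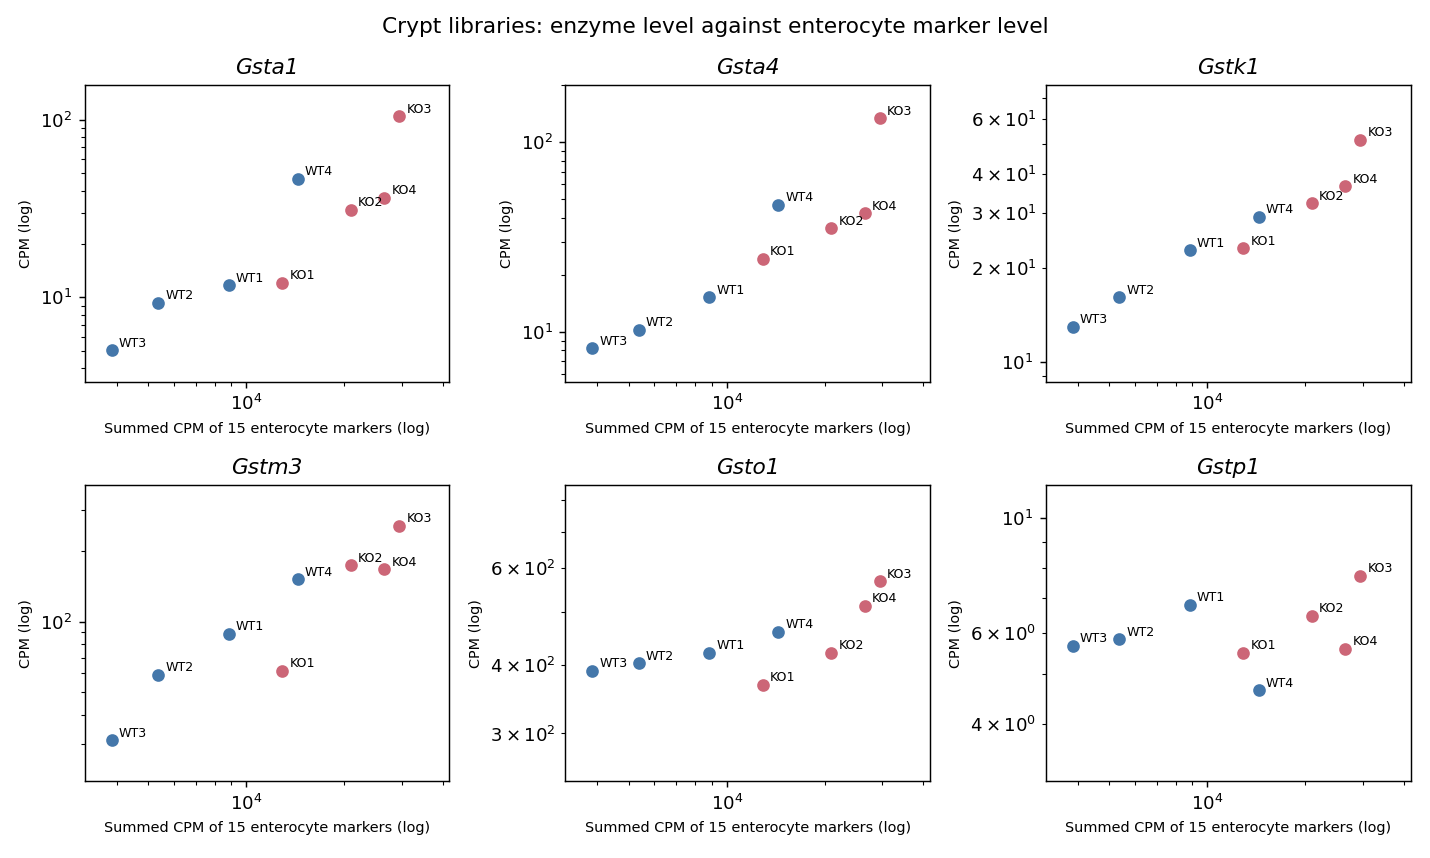
CPM of Gsta1, Gsta4, Gstk1, Gstm3, Gsto1 and Gstp1 in the 8 crypt libraries against the summed CPM of 15 enterocyte markers, both on log axes; blue is WT, red is KOIEC and labels give the replicate. Gsta1, Gsta4, Gstk1 and Gstm3 climb with the marker sum from WT replicate 3 (3864 CPM of marker) to KO replicate 3 (29471 CPM), and Gstp1 does not.

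With the enterocyte marker score as a covariate in the crypt fit, the log2 differences of 7 genes changed sign, and 0 of 10 were called either way. Gsta1 moved from 1.34 to -1.02, Gsta4 from 1.54 to -0.37, Gstm3 from 1.00 to -0.67 and Gstk1 from 0.82 to -0.12, while Gsta3 was -0.74 and -0.89 and Mgst1 -0.19 and -0.30. The score differs between genotypes, so it also takes up part of the genotype difference. Within libraries of low mitochondrial ribosomal RNA (WT replicate 1 and KO replicates 1 to 3) the log2 differences of Gsta1, Gsta4, Gstm3 and Gstk1 were 1.53, 1.66, 0.66 and 0.56. Between the libraries of middle level, WT replicate 4 and KO replicate 4, they were -0.35, -0.15, 0.14 and 0.33. With the class of this RNA (low, middle or high) as a covariate they were 0.98, 1.09, 0.58 and 0.51. Without WT replicates 2 and 3, the libraries of high level, they were 0.66, 0.91, 0.45 and 0.46. Over all genes, crypt calls went from 934 to 2 with the covariate and to 1 without those libraries.

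Most of the 10 genes also varied together within genotype in crypts. The mean pairwise correlation of all 10 was 0.556 over 8 libraries, with a range of 0.431 to 0.592 when 1 library was left out. Gstp1 and Gsta3 did not follow the others, as pairs with either gene ran from -0.386 to 0.295. Gsta1 and Gsta4 were the closest pair (0.976), followed by Gstm3 and Gstk1 (0.964). Outside the family, the genes with the highest mean correlation with the 10 were Tmem82 (0.772), Galm (0.77), Plekhb2 (0.768), Reep3 (0.767) and Trip4 (0.767).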

How the data were processed

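RNA-seq of 16 libraries was analysed from the authors' deposited tables of raw counts per gene, 1 table per experiment. The submitters' processing notes name HISAT2 2.0.5 and featureCounts 1.5.0-p3, while build, annotation, strand and multi-mapping settings are not given in the sources used here. In the tables, 95.2 to 98.3% of gene positions equalled GENCODE M21 (GRCm38), as did those of 9 of the 10 genes, all but Gstp1.

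KO was compared with WT in 1 model per experiment, using filterByExpr, TMM scaling and quasi-likelihood F tests of edgeR 4.0.16 (R 4.3.3), and the Benjamini-Hochberg adjustment covered every gene tested. Alternatives used DESeq2 1.42.0. CPM is TMM-scaled. A level of 3 counts corresponded to 0.178 to 0.408 CPM. P-values measure the spread between these libraries, since nothing ties each to a separate animal beyond the study's word of biological replicates. The script was tested on simulated data. Same-numbered libraries correlated at -0.40 to 0.43 once the mean of each genotype was subtracted. Differently numbered WT and KO libraries were not compared, so whether numbers pair the libraries was not settled. The reported fits use no block.

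The genes and lists were chosen with earlier results of these data known. Named were the 10 genes, called family genes, up to 4 genes per list with the smallest p, 5 covarying genes, Cul4b, mt-Rnr1 and mt-Rnr2.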

Additional observations from a re-analysis of the deposited data

Results flagged for a closer look

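In groups of 4 crypt libraries, 4 values lay far from the other 3 by Dixon's ratio over 52 groups screened. The ratio was taken on CPM without a log, and a log scale draws high values closer to the rest. Its nominal rate of 1 flag in 20 groups assumes normal values and independent groups. Genes that vary together do not give independent groups, so the flags only point to libraries. In WT replicate 4 Gsta1 stood at 46.5 CPM, and the other WT libraries ranged from 5.03 to 11.7 CPM. Gsta4 was 134 CPM in KOIEC replicate 3 and 24.4 to 42.3 CPM in the other KOIEC libraries. Hpgds, the hematopoietic prostaglandin D synthase, which is a sigma-class transferase, was 10.3 CPM in KOIEC replicate 4 and 2.22 to 2.51 CPM in the others. Alox5ap, a membrane protein of the microsomal transferase superfamily needed for leukotriene synthesis, was 11.6 CPM in the same library and 0.914 to 2.22 CPM in the others. That library also had summed tuft cell markers of 270 CPM, against 44.7 to 67.7 CPM in the other KOIEC libraries, and the part of this in the Hpgds and Alox5ap values was not tested.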

How the results depend on the processing

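The number of the 10 genes called in crypts was 0 in the reported fit. It was 1 with no low-count filter and with DESeq2 (Gstk1, higher in KO both times). With all 16 libraries in 1 fit it was 1 as well, but the gene was Gsta3, lower in KO. With 1 library left out it was 0 to 3. For the other family genes in crypts the number was 0, then 1 with no filter and 3 with DESeq2, and 0 to 3 with 1 library left out. In KOIEC organoids 0 of the 10 became 2 with no filter and 0 to 4 with 1 library left out, and the other family genes 0 to 3, with the highest values without KO replicate 1. In KOCAG organoids 7 became 3 with a fold of 2 and 2 (Gstk1 and Gsto1) with all 16 libraries in 1 fit, and the other family genes went from 9 to 3 with a fold of 2 and to 6 with DESeq2. Leaving out 1 library gave 7 to 8 and 6 to 10. With the replicate block the 10 genes gave 0, 0 and 7 calls and the other family genes 0, 0 and 10, while all crypt genes went from 934 to 4 calls. Over all crypt genes, leaving out 1 library gave 2 (without KO replicate 2 or 3) to 2468 (without KO replicate 1). No call reversed in direction. Without length scaling Gsto1 made up 42.4% in place of 33.8% of the summed level in WT crypts, and Gstp1 18.7% in place of 31.3% in WT organoids of the KOCAG experiment. The change in these shares comes from the length scaling alone, since the counts are the same. The cause of the other shifts was not tested. Groups of 2 libraries limit what the organoid tests can show.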

Other observations

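Some family genes outside the list of 10 had many counts in organoids and next to none in crypts. These are values from different experiments, which were not compared by a test. Gstp3 had 0 counts in all 8 crypt libraries and was 25.2 and 20.3 CPM in WT organoids of the KOIEC experiment and 23.9 and 20.5 CPM in those of the KOCAG experiment. A count of 0 allows up to 0.223 to 0.322 CPM in a crypt library. Gstp-ps, annotated as a pseudogene of the pi class, was 0 to 0.882 CPM in crypts and 47.6 to 89.1 CPM over the organoid libraries. Of 100-base stretches in its transcript, 51.1% also occurred in a transcript of another gene, so its counts and those of the pi genes may not be separable. Gstm2-ps1 was 0.536 to 1.80 CPM in crypts, 15.1 and 15.2 CPM in WT and 21.1 and 25.6 CPM in KOIEC organoids, and 1.16 to 3.74 CPM in the KOCAG experiment.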
